A study of Drosophila melanogaster with 2 samples.

Results

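The genes of the 26S proteasome were examined as targets of CG13287, a Drosophila melanogaster protein mapped by chromatin immunoprecipitation and sequencing. Members were the protein-coding genes whose symbol begins with Prosalpha, Prosbeta, Rpn or Rpt and a digit, testis paralogs with a T or R suffix included. This gave 48 of the 13968 protein-coding genes on the chromosome arms, 32 without a suffix and 16 with one. The embryos, whole and 6 to 24 h old, carried a CG13287-eGFP fusion transgene, and an antibody against GFP recovered the fusion protein. All samples formed 1 group of 2 biological replicates, so no genotype, stage or treatment could be compared. The tissue was the whole organism, so the cells in which a site was occupied are unknown, and the fusion stands in for the untagged protein. A gene was counted as bound when the summit of a peak lay within 500 bp of one of its transcription start sites (TSSs). By this count 28 of the 48 members were bound in the conservative list of both replicates.

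The 26S proteasome degrades proteins tagged with ubiquitin. Its barrel-shaped core particle is built from rings of alpha subunits, which gate the entry, and rings of beta subunits, some of which cut peptide bonds. A regulatory particle caps the barrel: its base holds a ring of ATPases that unfold substrates together with scaffolds and ubiquitin receptors, and its lid holds the enzyme that removes ubiquitin. In flies many subunits have a duplicated copy, and several of these copies are known from the testis.

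DNA from around some of the stronger of these summits follows. Shown first are the summit windows of the members with the highest peak signal off 1 arm whose sequence is left out, each reaching 50 bp to the left and right and trimmed to the longest run without an annotated exon. The window of Prosbeta7 lay wholly in exons and is not shown. Prosbeta6 was added after its values were seen, because its summit lay beside a full DRE, the element TATCGATA that the factor DREF binds. Prosalpha6 and its unbound paralog Prosalpha6T follow as a pair, the paralog at the same distance from its own start. Letters are the strand of the gene, 5' to 3', from the RefSeq Release 6 genome sequence (dm6). Capitals mark the DRE core ATCGAT or the Ohler 6 core GTATNTTT on either strand, the Ohler motifs being core promoter elements of the fly. The places are chr3R:29153389-29153489 (+) for Rpn2, chr3L:14999826-14999926 (+) for Prosbeta2, chr3L:21536955-21536999 (+) for Rpn10 and chr3R:23752835-23752875 (+) for Rpt5. They are chr3L:16582938-16583027 (+) for Rpn12, chr3L:16610419-16610507 (-) for Prosbeta6, chr2L:10221255-10221350 (+) for Prosalpha6 and chr2L:13231943-13232038 (+) for Prosalpha6T.
Rpn2: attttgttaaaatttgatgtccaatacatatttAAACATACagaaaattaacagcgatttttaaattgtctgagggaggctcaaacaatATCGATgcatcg
Prosbeta2: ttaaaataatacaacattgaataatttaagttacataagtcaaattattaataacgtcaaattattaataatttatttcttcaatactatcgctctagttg
Rpn10: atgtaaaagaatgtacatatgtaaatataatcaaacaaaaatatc
Rpt5: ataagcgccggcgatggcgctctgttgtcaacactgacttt
Rpn12: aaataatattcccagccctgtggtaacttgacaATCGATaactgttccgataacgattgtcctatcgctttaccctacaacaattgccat
Prosbeta6: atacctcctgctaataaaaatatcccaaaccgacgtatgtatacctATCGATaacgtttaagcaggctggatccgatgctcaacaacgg
Prosalpha6: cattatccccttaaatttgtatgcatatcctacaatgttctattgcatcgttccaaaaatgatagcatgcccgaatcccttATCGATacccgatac
Prosalpha6T: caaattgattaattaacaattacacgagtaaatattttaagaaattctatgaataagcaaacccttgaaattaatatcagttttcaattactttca

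The Rpn2 window ended 35 bp before its start and lay between the starts of Rpn2 and of Slbp, which face away from each other 258 bp apart. Prosbeta2 likewise shared its upstream DNA with mRpL39, whose start lay 285 bp away on the other strand. The Rpn10 letters end 1 bp before its start, so its summit, 5 bp downstream of the start, is not among them. The Rpt5 letters are all of the DNA between the starts of Rpt5 and RanBP3, 42 bp apart, and the DRE found at that summit runs across their first letters into the trimmed part. The Prosbeta6 window held the full element, with its core 1 bp from the summit and 40 bp before the start. In Prosalpha6 the full element lay 12 bp before the start. The Prosalpha6T window held neither core. This pair is an example and does not stand for the other pairs. Among the bound parent genes of unbound paralogs, Prosalpha3 and Prosalpha6 held the full DRE in the 101 bp at the summit. Rpn12 and Rpt6 held its core alone, and Prosalpha4, Prosbeta2, Prosbeta5, Rpn13 and Rpt4 held no DRE core there.

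The files hold peaks and no reads, and library depth is therefore unknown. The conservative list held 5955 peaks with a median signal of 178, the optimal list 7031, and the lists of the single replicates 4014 for replicate 1 and 7340 for replicate 2. Behind each filtered list stood a longer ranked list, from 24477 to 36779 entries. The signal is the peak value the authors deposited, in a unit the sources used here do not define, and it is compared within 1 list. Levels are therefore given first for both replicates together and then for each replicate from its own ranked list. A rank counts peaks of the conservative list from the strongest. The labels call the replicates biological and name no separate collection. No expression was measured in the files used here.

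Most genes of the proteasome without a suffix carried a peak at their start, and most of the duplicated paralogs did not. In the conservative list 28 of 48 members were bound (58.3%, exact Clopper-Pearson 95% interval 43.2 to 72.4), against 39.8% of all protein-coding genes. Of the 32 members without a suffix 26 were bound (81.2%, 63.6 to 92.8). Of the 16 paralogs 2 were bound (12.5%, 1.55 to 38.3), so the intervals of the 2 kinds of member did not overlap. These intervals cover counting error only, and members are genes of 1 complex, not replicates. By role, 6 of 6 base ATPases and 4 of 4 base scaffolds and receptors were bound, as were 5 of 7 alpha subunits, 5 of 7 beta subunits and 6 of 8 lid subunits. With so few genes in each role the intervals overlapped, from 29.0 to 96.3% for the alpha ring and from 54.1 to 100% for the ATPases.

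The split between subunits and paralogs was present in every list. The optimal list also gave 28 bound members (58.3%), 26 without a suffix and 2 paralogs, against a background of 43.7%. Replicate 1 alone gave 24, 22 of them without a suffix, against 30.3%. Replicate 2 alone gave 30 (62.5%), 28 of them without a suffix, against 44.9%. The background rose in the longer lists, and the ranked list behind the conservative one held 33 members (68.8%), 31 without a suffix, against 60.7% of all genes. In the ranked list of replicate 1, 32 members had an entry (66.7%, against 58.0%), 30 without a suffix and 2 paralogs. In that of replicate 2, 34 had one (70.8%, interval 55.9 to 83.0, against 66.1%), 31 without a suffix and 3 paralogs. Over all members these shares were near those of all genes. A window of 200 bp left 27 members (background 35.0%) and a window of 1000 bp left 28 (background 42.7%). In the conservative list no member sat near the 500 bp limit: the farthest bound summit was that of Rpn11, 360 bp upstream, and the nearest conservative summit to an unbound member was at -2142 bp from Prosalpha2.

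**Figure D1:**
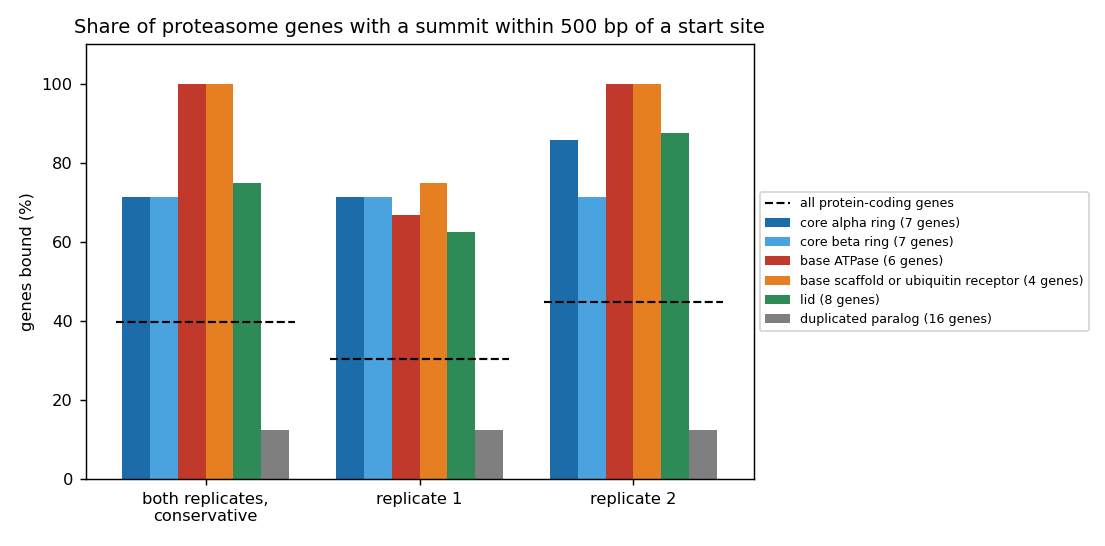
Percent of proteasome genes (vertical axis) with a summit within 500 bp of a start site, for 6 roles (colours, with the number of genes) in the conservative list of both replicates and in the filtered list of each replicate. Dashed lines give all protein-coding genes (39.8, 30.3 and 44.9%), and the duplicated paralogs stay at 12.5% in all 3 lists.

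The alpha ring, which forms the gate of the core particle, had 5 bound genes of 7 and 1 of the strongest peaks of the whole data set. Prosalpha7 (FBgn0023175) carried a signal of 1948, rank 9 of 5955, on chr2R:9847628-9848181, with 803 in replicate 1 and 1146 in replicate 2. Its summit lay 50 bp upstream of the start. The other bound alpha genes ranged much lower. Prosalpha5 had 367 (142 and 235 in replicates 1 and 2) and Prosalpha4 had 362 (151 and 206). Prosalpha3 had 234 (70.6 and 131) and Prosalpha6 had 199 (70.9 and 140). All 5 summits lay upstream, between 21 and 66 bp before the start.

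Prosalpha2 and Prosalpha1 were the unbound alpha genes, and they differed in kind. Prosalpha2 (FBgn0086134) had an entry in the ranked list of both replicates with a signal of 69.4 and a score of 655, below the lowest filtered score of 830. Replicate 1 gave 23.6 there and replicate 2 gave 48.2, and in replicate 2 alone the peak was kept with a score of 881. Prosalpha1 (FBgn0263121) had no entry in any list, and its nearest conservative summit lay 3.18 kb away. All 31-base words (100%) within 500 bp of its 5' end occurred again on the arms, and the same held for its paralog Prosalpha1R. Among the 48 members these 2 (4.17%) had more than 50% repeated words, against 2.38% of all protein-coding genes. Whether reads that match several places were kept is not given in the sources used here, and the part of repeated sequence in the missing peaks was not tested.

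The beta ring includes the genes of the 3 catalytic subunits, Prosbeta1, Prosbeta2 and Prosbeta5, and all 3 were bound. Prosbeta2 (FBgn0023174), the trypsin-like subunit, had a signal of 1081 at rank 141 on chr3L:14999553-15000109, with 520 and 559 in replicates 1 and 2. Its replicate values were the closest of the members with replicate 2 higher, at a ratio of 1.08. Prosbeta1 (FBgn0010590), the caspase-like subunit, had 864 at rank 305 on chr2R:16014677-16015081, with 328 and 547. Prosbeta5, the chymotrypsin-like subunit, had 465 at rank 1104 (197 and 275). The non-catalytic Prosbeta7 (FBgn0250746) had 634 at rank 689 on chr3R:5358047-5358402, but its replicates were far apart, 167 and 447. Prosbeta6 was the lowest of the bound beta genes at 265 (112 and 152).

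Prosbeta3 and Prosbeta4, both structural, were not bound. Prosbeta3 (FBgn0026380) had a ranked entry of 63, with 13.3 in replicate 1 and 53.4 in replicate 2. Prosbeta4 (FBgn0032596) had a ranked entry of 58.1 at -467 bp from its start, with 48.3 in replicate 2 and no entry in replicate 1. Both entries scored below the filter, at 145 and 608.

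All 6 ATPases of the base, the motor that unfolds substrates and feeds them to the core, were bound, with signals from 173 to 571. Rpt5 (FBgn0028684) was highest at 571, rank 827, on chr3R:23752659-23753057, with 225 and 342 in replicates 1 and 2. Rpt1 (FBgn0028687) followed at 515, rank 966, on chr2R:7653788-7654168, with 203 and 325. No ATPase gene reached the 595 strongest peaks. Rpt6 had 393 (136 and 253), Rpt3 had 351 (111 and 215) and Rpt2 had 256 (81.1 and 174). Rpt4 was the weakest bound member of all at 173, rank 3092, just under the median of the list, with a score of 959. Its 37.5 in replicate 1 came from the ranked list alone, and its 141 in replicate 2 was 3.76 times that, the widest replicate ratio among bound members. The value of Rpt2 in replicate 1 also came from the ranked list alone.

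The base also holds the large scaffolds Rpn1 and Rpn2 and the ubiquitin receptors Rpn10 and Rpn13, and all 4 genes were bound at 2 levels. Rpn2 (FBgn0028692) had 1118 at rank 124 on chr3R:29153160-29153682, with 501 and 620 in replicates 1 and 2. Rpn10 (FBgn0015283) had 1048 at rank 165 on chr3L:21536807-21537207, with 437 and 615, and its summit lay 5 bp downstream of the start. Each of the strong genes thus stood beside a weaker one of the same kind. Rpn1 had 236 (86.2 and 150). Rpn13 had 192 (55.1 and 127), and its replicate 1 value came from the ranked list alone.

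The lid gave the strongest peak of all members. Rpn6 (FBgn0028689), a lid subunit that clamps lid, base and core together, had 2618 at rank 3 of 5955 on chr2R:14752019-14752737, with 1177 and 1423 in replicates 1 and 2. Rpn6 and Prosalpha7 were the members with values above 800 in both replicates. Rpn12 (FBgn0028693) had 481 at rank 1062 on chr3L:16582725-16583167 (191 and 285), Rpn5 had 450 (183 and 265) and Rpn3 had 339 (106 and 242), and all 3 encode structural lid subunits. Rpn9, another structural subunit, had 179 (49.1 from the ranked list alone, and 123). Rpn11, the deubiquitinating enzyme of the lid, had 208 with a score of 968. It was the 1 bound member that was lower in replicate 2 (84.8) than in replicate 1 (130), and the replicates also placed its summit apart: the strongest summit of both replicates together was at -360 bp, that of replicate 2 at -84 bp.

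Rpn7 and Rpn8 were the unbound lid genes. Rpn8 (FBgn0002787), the partner of Rpn11, had a ranked entry of 64.1, with 28.8 and 37.7 in replicates 1 and 2. Rpn7 (FBgn0028688) had a ranked entry of 63.3, with 14.5 and 56.4, and in replicate 2 alone its peak was kept with a score of 857. In the ranked list behind the conservative one, the 5 unbound members with an entry thus ran from 58.1 to 69.4, below the lowest bound member at 173.

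**Figure D2:**
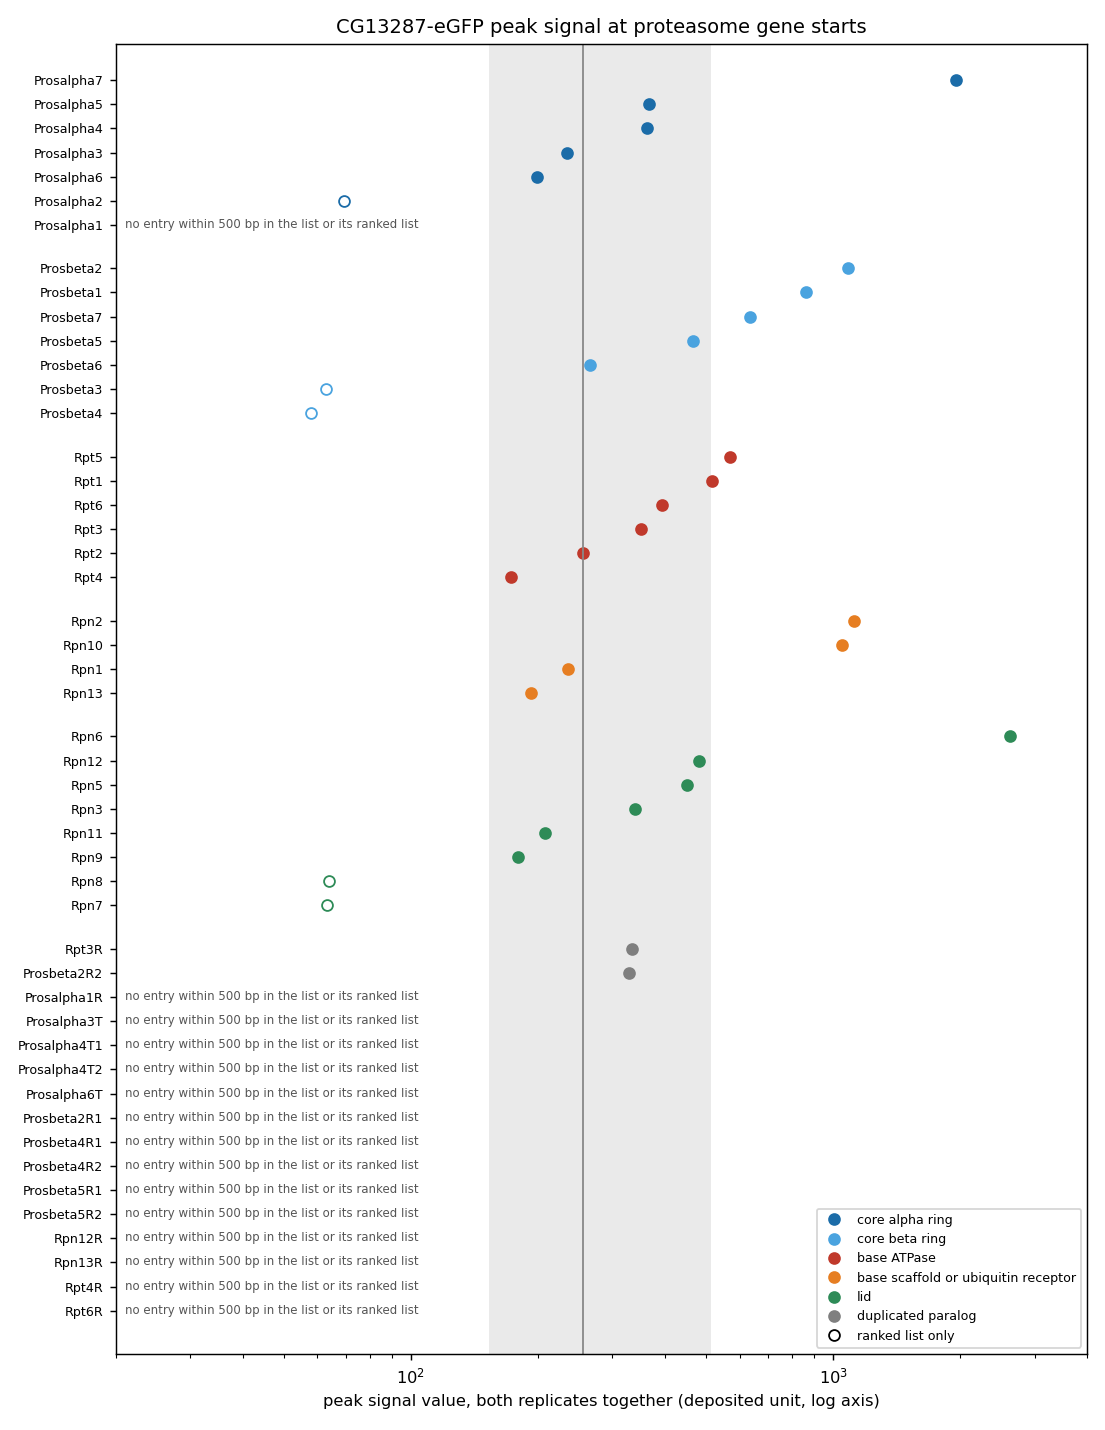
Peak signal of both replicates together (horizontal log axis, deposited unit) for each of the 48 members, grouped by role. Filled points are peaks of the conservative list, open points are entries of its ranked list alone, the grey line and band are the median (255) and quartiles (153 and 513) of all bound protein-coding genes, and the filled points run from 173 for Rpt4 to 2618 for Rpn6.

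Of the duplicated paralogs, 14 had neither a conservative nor an optimal peak at their start. These were Prosalpha1R, Prosalpha3T, Prosalpha4T1, Prosalpha4T2, Prosalpha6T, Prosbeta2R1, Prosbeta4R1, Prosbeta4R2, Prosbeta5R1, Prosbeta5R2, Rpn12R, Rpn13R, Rpt4R and Rpt6R. Their nearest conservative summits lay from 6.27 kb (Prosalpha1R) to 69.9 kb (Prosbeta4R2) away, against 2.14 to 8.84 kb for the unbound members without a suffix. Rpt6R was the 1 of the 14 with any entry, 40.6 in the ranked list of replicate 2 and 56.6 in the ranked list behind the optimal one. Parent genes with a peak beside unbound paralogs were Prosalpha3, Prosalpha4, Prosalpha6, Prosbeta2, Prosbeta5, Rpn12, Rpn13, Rpt4 and Rpt6, while neither Prosbeta4 nor its copies had one.

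The 2 bound paralogs were Prosbeta2R2 (FBgn0037296) and Rpt3R (FBgn0037742). Prosbeta2R2 had 329 at rank 1614 on chr3R:5219483-5219792, with 113 and 211 in replicates 1 and 2. Rpt3R had 334 at rank 1588 on chr3R:9756198-9756504, with 122 and 210. Both summits lay nearer to a gene of the other strand. At Prosbeta2R2 the summit was 90 bp upstream of its start and 39 bp upstream of that of CG1116. At Rpt3R it was 144 bp downstream of the start and 125 bp upstream of that of Alg12, a gene of sugar transfer in glycoprotein synthesis. Counting each summit for its nearest start alone left 0 of 16 paralogs and 22 of 32 other members, against 30.8% of all protein-coding genes.

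Bound members lay in the stronger part of the list. Their signal ran from 173 to 2618 with a median of 365 and quartiles of 251 and 586, against a median of 255 and quartiles of 153 and 513 for all 5565 bound protein-coding genes. Of the 28 members 27 (96.4%) lay among the 2977 strongest peaks, against 66.5% of bound genes. Among the 595 strongest were 6 of 28 (21.4%), against 15.5%: Rpn6, Prosalpha7, Rpn2, Prosbeta2, Rpn10 and Prosbeta1. Role medians were 634 for the beta ring, 642 for scaffolds and receptors, 395 for the lid, 372 for the ATPases and 362 for the alpha ring, with ranges that overlapped. Member peaks had a median width of 378 bp, against 450 bp.

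The replicates ranked the members alike. Over the 28 bound members the median signal was 139 in replicate 1 and 238 in replicate 2, and the median ratio of replicate 2 to replicate 1 was 1.66. Replicate 2 was higher in 27 of 28. All bound genes with an entry in both replicates, 5522 in number, had a median ratio of 1.55 and were higher in replicate 2 in 5199, so the members moved with the whole list. Spearman's rho between replicates was 0.91 over the members and 0.91 over all bound genes, given as a description across genes of the same libraries. Of the 28 members 24 (85.7%) were in the filtered lists of both replicates, against 73.8% of bound genes. The other 4, Rpt2, Rpt4, Rpn13 and Rpn9, were in the filtered list of replicate 2 alone.

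**Figure D3:**
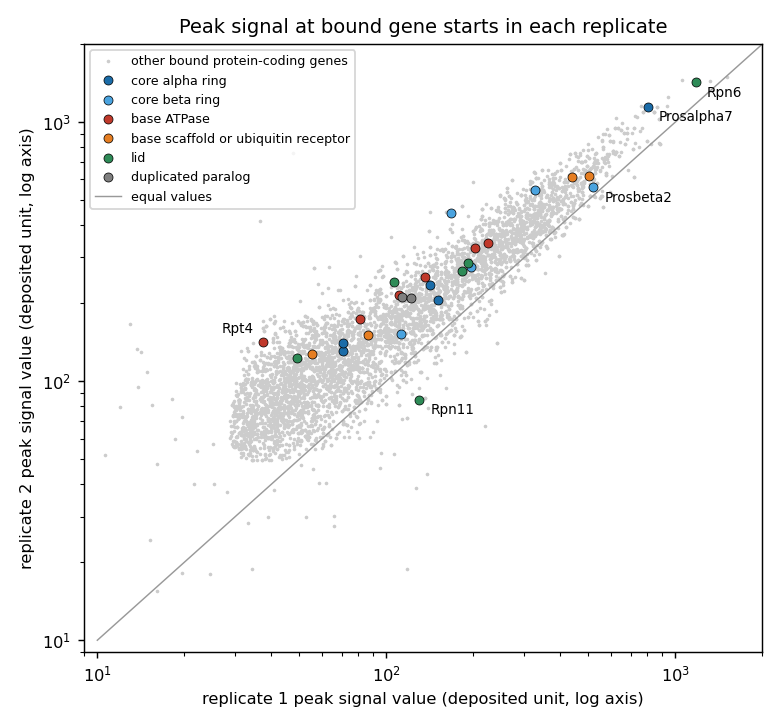
Peak signal in replicate 1 (horizontal) and replicate 2 (vertical), deposited units on log axes, for bound members (coloured by role) and other bound protein-coding genes (grey). Of the 28 members 27 lie above the line of equal values, and Rpn11 (130 and 84.8) lies below it.

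Summits sat close upstream of the member starts. The median position was -49.0 bp with quartiles of -86.2 and -28.0, against -60.0 with quartiles of -133 and -14.0 for all bound genes. Of the 28 summits 24 were upstream (85.7% against 80.2%), and 21 were within 150 bp upstream (75.0% against 59.1%). The 4 downstream summits were those of Rpn10, Rpt2, Rpn9 and Rpt3R, at 5, 26, 144 and 144 bp. The side of Rpt3R, a gene with 2 starts, differed between replicates: 132 bp downstream in replicate 1 and 140 bp upstream in replicate 2. Far upstream were Rpt3 at -300, Rpn5 at -325 and Rpn11 at -360. Rpt3 and Rpn5 had a second summit nearer to the start, of 180 at 12 bp downstream and of 146 at 122 bp upstream. Rpt5 also had a second, weak summit of 32.8 at 160 bp downstream. Such double summits were found at 3 of 28 members (10.7%), against 21.2% of bound genes.

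**Figure D4:**
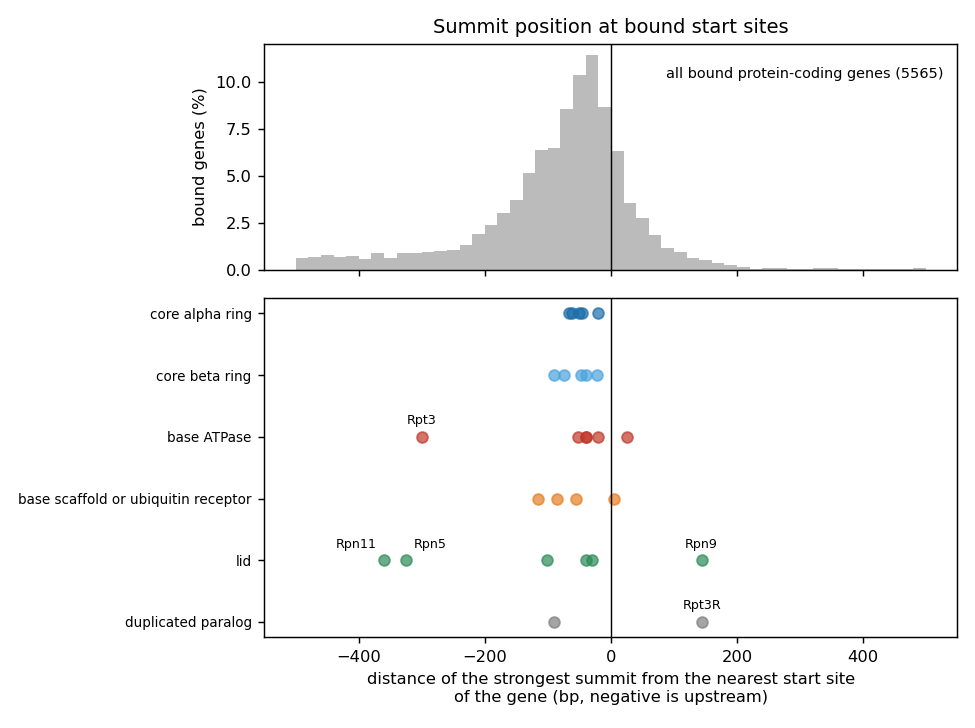
Distance of the strongest summit from the nearest start site (bp, negative upstream). The upper panel is a histogram of all 5565 bound protein-coding genes (percent of genes per 20 bp), and the lower panel shows each bound member by role, with most points in the 100 bp before the start and Rpn11, Rpn5 and Rpt3 from -300 to -360.

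Many of these summits stood between a proteasome gene and a second gene that starts on the other strand. At 19 of 28 members (67.9%) the summit also lay within 500 bp of the start of another protein-coding gene, against 53.4% of bound genes, and all 19 partners lay on the opposite strand. Rpn6 was paired with ave, Prosalpha7 with CG1671, Rpn2 with Slbp, Prosbeta2 with mRpL39 and Prosbeta1 with Rrp42. Among the partners are Slbp, a protein that binds histone mRNA, mRpL39, of the mitochondrial ribosome, and Npc1a, a sterol transporter that faces Prosalpha6. The partner was nearer to the summit than the member at 8 of the 19 pairs. They included Prosbeta1 (Rrp42 at -31 against -90), Rpn5 (Hat1 at -94 against -325), Rpt3 (CG11122 at -75 against -300), Rpt4 (mldr at -19 against -39), Rpt5 (RanBP3 at -2 against -40) and the 2 bound paralogs. At such pairs the peak lists do not tell which gene a summit belongs to. No other start lay near the summits of Prosalpha5, Prosbeta6, Prosbeta7, Rpn1, Rpn10, Rpn11, Rpn12, Rpt1 and Rpt6, and the 28 members were at 28 distinct peaks.

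The DRE was found at many starts of members without a suffix, and its share depended on the window. Promoters were taken from 250 bp before to 50 bp after the 5' end of the gene and searched on both strands. At Prosbeta7 and Rpn6 the bound start was another start inside the gene. In promoters TATCGATA was found in 12 of 32 members without a suffix (37.5%), 0 of 16 paralogs and 9.36% of all protein-coding genes. Bound genes as a whole held it in 20.5% and bound members in 11 of 28 (39.3%). Its core ATCGAT, which the full element contains, was found in 17 of 32 (53.1%), in 1 of 16 paralogs (Prosbeta2R1), in 41.5% of bound genes and in 23.3% of all genes. In the 101 bp at the summit the full element was found at 8 of 28 members (28.6%), against 15.5% of bound genes. These were Prosalpha3, Prosalpha5, Prosalpha6, Prosbeta1, Prosbeta6, Rpn11, Rpt3 and Rpt5. In the 51 bp at the summit it was found at 2 of 28 (7.14%), against 8.91%, so the higher share in the wider window was not present next to the summit. At the summits of the single replicates it was found at 5 of 24 members in replicate 1 (20.8% against 19.1%) and at 5 of 30 in replicate 2 (16.7% against 13.5%). The core was found at 13 of 28 summits in the 101 bp (46.4% against 31.3%) and at 5 of 28 in the 51 bp (17.9% against 20.3%). In the 101 bp at the summits of single replicates its shares were 45.8% against 37.6% in replicate 1 and 33.3% against 27.8% in replicate 2.

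Within the 101 bp windows the core lay at a median of 27.5 bp from the summit, over 16 cores at 13 members. Of the 16 cores 6 lay within 25 bp. The window itself limits this distance, and the distance was not measured for all bound genes. The median therefore does not show that cores lie close to the summit. The core was nearest at Prosbeta6 (1 bp), Rpt5 and Rpt1 (2 bp each) and Rpt6 (4 bp). Signal differed little by the core among members, with a median of 367 in the 13 with it and 362 in the 15 without it. Over all bound genes the medians were 457 in 1740 with it and 195 in 3825 without it. Among the 6 members in the 595 strongest peaks, Prosbeta1 held the full element at its summit and Rpn2 the core, while Rpn6, Prosalpha7, Prosbeta2 and Rpn10 held neither there. Prosbeta2 held the full element in its promoter.

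Other motifs were searched on both strands in the same way. The Ohler 6 core GTATNTTT was found at 5 of 28 member summits (17.9%), against 6.34% of bound genes. In promoters it was found in 11 of 32 members without a suffix (34.4%), against 14.9% of all genes and 19.0% of bound genes. These 11 included the unbound Prosalpha1, Prosbeta3, Prosbeta4 and Rpn7. Among bound members the promoter share was lower, 7 of 28 (25%), and nearer to that of bound genes. The E-box CAGCTG was found at 1 summit (3.57%), against 11.2%, and in 1 of 32 promoters (3.12%), against 17.6% of all genes and 24.4% of bound genes. Bound members held it in 2 of 28 promoters (7.14%). The site of the promoter factor M1BP, GGTCACAC, was found at 1 summit (3.57% against 5.89%). In promoters it was found in 5 of 32 members (15.6%), against 7.69% of all genes and a near share of bound genes, 14.1%. Of these 5, 3 were the unbound Prosalpha2, Prosbeta3 and Rpn7. Bound members held it in 2 of 28 promoters (7.14%), below the share of bound genes. Prosbeta7 was not counted among these, since the promoter window was placed at the 5' end of the gene. Its summit with the site lay 48 bp before its bound start, which is another start inside the gene. The same 3 and Rpn1 and Rpt6 held TGACNNNGC, the site of Cnc and Maf proteins, in their promoters (15.6%, against 8.62%). The Cnc and Maf site was found at 1 summit (3.57%, against 3.58%), that of Prosbeta7, which was also the 1 summit with the M1BP site. The M1BP site holds TGAC on its other strand, so the same letters can match both sites. Whether they did so here was not tested. The Ohler 7 core CANCNCTA was found at 4 summits (14.3% against 11.3%) and the TATA box TATAAA at 6 (21.4% against 14.4%). GAGAGA, the letters of the GAGA factor, and the Zelda site CAGGTAG were found at 0 member summits, against 4.22% and 0.395%. At 7 summits (25%, against 36.7%) none of the 10 motifs was found, and these included Prosalpha7, Prosbeta2 and Rpn10. A match describes letters in a window and not a bound site.

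**Figure D5:**
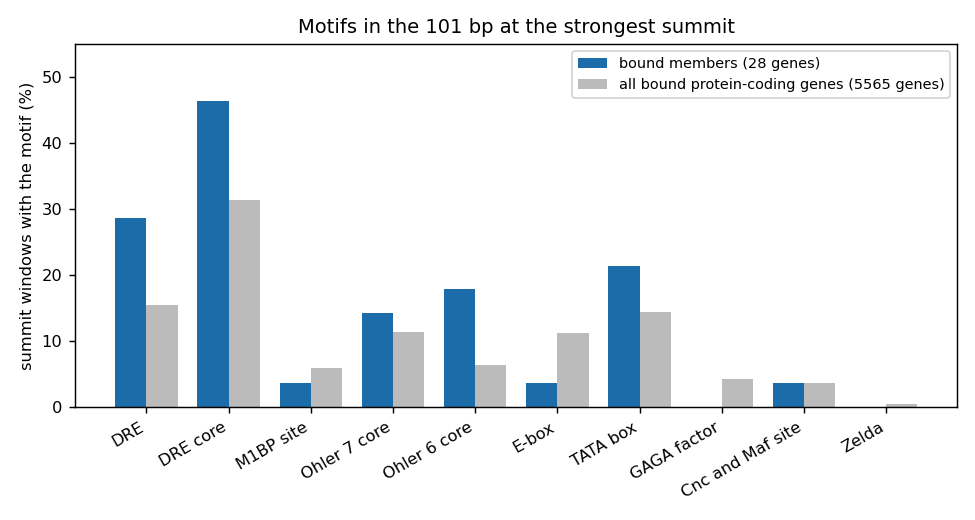
Percent of 101 bp summit windows (vertical axis) that hold each of 10 motifs on either strand, for 28 bound members (blue) and 5565 bound protein-coding genes (grey). The tallest pair is the DRE core, 46.4% against 31.3%, and the DRE, Ohler 6 core and TATA box bars are taller for the members while the E-box, M1BP and GAGA factor bars are taller for all bound genes. In 51 bp windows the DRE core shares were 17.9% against 20.3%.

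Members were bound on each arm that holds them. Of the members 8 of 13 were bound on 2R, 8 of 14 on 3R, 5 of 7 on 3L, 3 of 8 on 2L and 4 of 6 on X. Without the paralogs these were 8 of 10, 6 of 9, 5 of 5, 3 of 4 and 4 of 4. The share of all protein-coding genes bound on each arm was not counted, so no arm can be called different from its background. The bound members on X were Prosalpha4, Rpt3, Rpt4 and Rpt6, and the unbound ones on X were the paralogs Prosbeta2R1 and Rpn13R.

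The wider ubiquitin-proteasome system was read from a list of 23 other genes, which was not trimmed by value. Of these 14 (60.9%) were bound, against the background of 39.8%, with a median signal of 586 and a range of 105 to 1866. The strongest was Ube3a, a ubiquitin ligase, at 1866 with 772 and 1088 in replicates 1 and 2. The shuttle factors that carry tagged proteins to the proteasome were rngo at 1153 and Ubqn at 647, while Rad23 was not bound. TER94, the fly VCP ATPase that extracts tagged proteins, had 1119, and its cofactors Ufd1 and Npl4 had 786 and 782. The ubiquitin-conjugating enzyme Ubc2 had 615. The proteasome regulator PI31 had 556, the assembly chaperone Pomp had 398, the F-box protein gene ntc had 397, the ubiquitin-activating enzyme gene Uba1 had 350 and the activator gene REG had 169. The gene of cnc, a transcription factor of the family that controls proteasome genes in mammals, was bound at 197 with its summit at the start itself, and its partner maf-S was not bound. Of the polyubiquitin genes Ubi-p63E had 105 and was in the filtered list of replicate 2 but not of replicate 1, and Ubi-p5E was not bound. The others that were not bound were the small lid subunit gene Sem1, the deubiquitinases Usp14 and Uch-L5, the TER94 cofactor p47, the conjugating enzyme Ubc6 and CG8858, the relative of the proteasome-associated Ecm29. Some of the unbound genes were nonetheless in a replicate's own filtered list. Sem1 was in both replicates' own lists (50.7 and 46.0 in replicates 1 and 2), Usp14 in that of replicate 1, and Uch-L5, Rad23, p47 and CG8858 in that of replicate 2. At Ube3a, rngo, Ubqn, Ufd1, REG, ntc, Ubi-p63E and TER94 the summit also lay within 500 bp of the start of another gene. For TER94 that was a long noncoding RNA. The peak lists do not tell which gene such a summit belongs to. The summits of Ubqn and REG lay at -212 and -406 bp.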

How the data were processed

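Peak lists on dm6 were analysed: 4 filtered by the irreproducible discovery rate and 4 ranked lists. The deposited signal is the peak value given by the authors, and the deposited score is the scaled reproducibility score, capped at 1000. The aligner, peak caller and control scaling were not given in the sources used here. No control sample was used here. The labels put the ages at 6 to 24 h and the fragments at 200 to 800 bp, and the age field was not used, since its number of hours is impossible. Summits were the peak start plus the deposited offset, and 5 conservative summits outside their interval were kept. Mitochondrial peaks were left out. Starts came from the Ensembl release 115 annotation (BDGP6.54).

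Python 3.11.15, NumPy 2.4.6, SciPy 1.17.1 and matplotlib 3.10.9 were used, and counting of peaks and motifs was tested on simulated data. Each member was named, with full values for the 10 strongest, the bound paralogs and the unbound members without a suffix. The members and lists were chosen with earlier results of these data known. With 1 group of 2 replicates no test between groups was made, and shares are set beside those of all genes. Other lists, distances, assignments and windows were tried as alternatives. One neighbouring gene is not reported here.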

Additional observations from a re-analysis of the deposited data

How the results depend on the processing

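Over 6 results, 42 of 50 alternatives kept the value close to that reported and 8 did not. For counts the rule was wide, and 22 bound members were called close to 28. A median was close when it differed by less than the standard deviation between the single-replicate values, 46.9 for signal and 5.66 bp for position. That deviation comes from replicate values that were then judged by it, so the 42 describe the labels and do not measure robustness. Bound members ranged from 22 (nearest start alone) to 30. Without 1 replicate they ranged from 24 to 30, those without a suffix from 22 to 28, and the paralogs stayed at 2. With the nearest start alone 0 paralogs were bound, since both summits lay nearer to another gene. The median signal of bound members was 159 in replicate 1 alone and 225 in replicate 2 alone, on the scales of those lists. The count of summits with TATCGATA, 8 as reported, was 5 in either replicate alone, 5 with the nearest start alone, 2 within 25 bp of the summit and 13 for the core ATCGAT. The cause of the change between replicates was not tested, and the other counts changed by how they were made. The median summit position ranged from -54.5 to -46.5 bp without 1 replicate. No paired analysis was possible because the samples form 1 group. Depth is unknown, so the unbound members may lie below what these libraries could show.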

Other observations

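Ubc6, a ubiquitin-conjugating enzyme gene, had a high signal in the ranked lists and no entry at its start in any filtered list. The value was 1391 for both replicates together, 607 in replicate 1 and 791 in replicate 2, each with the highest possible score of 1000. Of 6145 ranked peaks on the arms that reached the lowest filtered score of 830, 5955 were kept and 190 were not. What removed them is not given in the sources used here.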
